A study of Mus musculus with 3 samples.

Results

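Neurofilament subunits and other genes known from retinal ganglion cells were followed in the retina of Rp1 knockout mice. They were the 6 genes Nefl, Nefm, Nefh, Thy1, Sncg and Gap43, and every probe set with 1 of these symbols, and no other symbol, was taken. On the array they had 7 probe sets, out of 12422 probe sets that are not controls, and made up 6 of the 8251 genes with a probe set of their own. Sncg had 2 probe sets and the other 5 genes had 1 each, so only for Sncg could probe sets of the same gene be compared. The 3 samples were pools of neural retina from Rp1-/- mice of mixed 129/SvEv and C57BL/6 background, killed at postnatal day 21, with 3 to 4 mice in a pool and tissue taken between 1 and 2 pm. The pools form 1 group and carry the numbers 1 to 3 only as names, without order. No control retina was analysed here, so the values describe the knockout retina and the spread between its pools, and nothing was tested between conditions. The array carried 0 probe sets with the symbol Rp1, so the deletion itself could not be followed.

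Neurofilaments are the intermediate filaments of neurons. The light, medium and heavy subunits, encoded by Nefl, Nefm and Nefh, assemble together with alpha-internexin and, in some neurons, peripherin, and fill large axons. In the retina the axons of ganglion cells, which form the optic nerve, are rich in them, and processes of horizontal cells also carry neurofilament protein. Thy1 encodes a surface glycoprotein and Sncg encodes gamma-synuclein, both widely used to mark ganglion cells, and Gap43 encodes a phosphoprotein of growing axons. In whole retina, fewer cells of a type and less RNA per cell cannot be told apart.

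Signals are linear array intensities after each array was multiplied by a factor that equalised its trimmed mean, and differences between pools are also given as log2 values. Background was judged array by array: a signal had to exceed the 95th percentile of 19 controls for bacterial and yeast transcripts, which was 160.3, 80.7 and 107.1 in replicates 1, 2 and 3. The arrays differed in the shape of their distributions: setting their medians equal shifted replicates 1, 2 and 3 by -0.23, 0.22 and 0.01 on the log2 scale. Which pool was highest is therefore given for these other scalings too. The 3′ to 5′ signal ratio of the actin control was 1.31 in replicate 1 and 1.47 in replicate 3, with replicate 2 close to the latter, and that of the Gapdh control lay between 0.845 and 0.929. Levels of different probe sets are not set against each other, since probes differ in response.

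All 6 genes were measured above background. Each of the 7 probe sets exceeded the limit on all 3 arrays, as did 54.4% of all probe sets, and 62.8% of all genes had at least 1 probe set that did. The margin differed between them. Nefm in replicate 3 was only 1.09 times the limit of that array, while the next smallest margin was 2.29 times, for Gap43 in replicate 1. Nefl, Nefh and Thy1 were between 9.07 and 20.6 times the limit on every array.

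**Figure D1:**
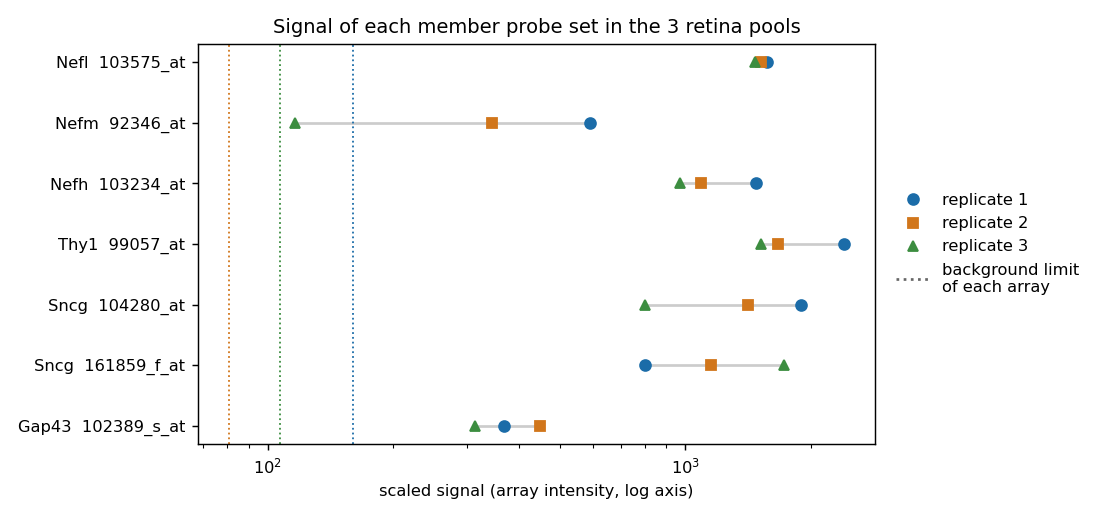
Scaled signal (array intensity, log axis) of the 7 member probe sets, one point for each of the 3 pools and a dotted line for the background limit of each array. The Nefl points almost coincide, Nefm runs from 116 in replicate 3 to 589.8 in replicate 1, and the lines for the 2 Sncg probe sets show replicates 1 and 3 exchanged, although with equal array medians 104280_at was highest in replicate 2.

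Nefl, the light subunit that the other subunits need to form filaments, was almost the same in every pool. Its signal was 1567, 1519 and 1464 in replicates 1, 2 and 3, a mean of 1517 ± 51.6 (SD, n = 3). The SD on the log2 scale was 0.05, and only 1.29% of the 6752 probe sets above background had a smaller one. The median SD of the 1055 probe sets within 0.5 log2 units of its level was 0.31. The log2 range was 0.10 over the 3 pools, 0.053 without replicate 1 and 0.045 without replicate 3. This closeness depended on the scaling. With the array medians set equal the signals were 1335, 1768 and 1477, and the log2 range grew to 0.41, while after quantile normalization it was 0.24.

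Nefm, the medium subunit, differed most between pools. It gave 589.8, 344 and 116 in replicates 1, 2 and 3, a mean of 350.1 ± 237 (SD, n = 3). Replicate 1 was thus 5.06-fold above replicate 3 and 1.71-fold above replicate 2. The log2 SD of 1.19 was larger than that of 97.8% of all probe sets above background, and larger than that of 95.9% of the 1806 at a similar level, whose median was 0.47. Most of the spread came from replicate 3, the value near the background limit: without it the log2 range dropped from 2.34 to 0.78. Replicate 1 was the highest pool and replicate 3 the lowest under each of the 4 scalings run (trimmed mean, as deposited, common median and quantile normalization), with a fold between them of 4.28 for common medians and 4.66 after quantile normalization.

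Nefh, the heavy subunit whose long, heavily phosphorylated tail projects from the filament, lay between these. It gave 1477, 1089 and 971 in replicates 1, 2 and 3, a mean of 1179 ± 265 (SD, n = 3). Replicate 1 stood 1.52-fold above replicate 3. Replicates 2 and 3 were close to each other, and without replicate 1 the log2 range was 0.17 instead of 0.61. With equal array medians replicates 1 and 2 were level, at 1258 and 1268, and replicate 3 remained lowest at 979.

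The neurofilament probe sets therefore did not move in proportion. The difference between 2 probe sets on the same array does not depend on the factor given to that array. The log2 difference of Nefm to Nefl ranged over 2.24 between pools, which is a 4.73-fold change of their ratio. Around its mean this difference was 0.99, 0.26 and -1.25 in replicates 1, 2 and 3, so replicate 3, where Nefm was near the limit, stood farthest out. The ratio of Nefm to Nefh ranged 3.33-fold, and that of Nefh to Nefl only 1.42-fold. After quantile normalization, which does alter such ratios, the ranges were 3.97-fold, 2.97-fold and 1.41-fold. A ratio of this kind shows unequal change and does not say which of the genes differed. In the gene table of assembly GRCm38.p6, Nefl and Nefm lie on the same chromosome with 0 protein-coding genes starting between them.

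Other intermediate filament genes, a list of 7 of which 6 were on the array, were above background for 3 genes. These 3 had 5 probe sets above the limit, each highest in replicate 1, where 43.1% of all probe sets above background were. With equal medians this held for 3 of the 5, where the share was 25.0%. After quantile normalization it held for all 5, where the share was 39.3%. Ina encodes alpha-internexin, the partner of the neurofilament subunits in central neurons. Its probe set 94334_f_at gave 2595, 1540.2 and 1259, and 94335_r_at gave 2598, 2073 and 1816, so both were lowest in replicate 3, as Nefm and Nefh were. Prph, peripherin of peripheral and some central neurons, was above background in replicate 1 alone. There its probe set 104751_at gave 504 against 50.9 and 5.80 in replicates 2 and 3, both below the limit. With this limit and scaling, replicate 1 was thus at least 6.25-fold above replicate 2 and at least 4.71-fold above replicate 3. A higher limit would give smaller bounds. The second Prph probe set, 161482_f_at, gave 178, 63.8 and 59.4, again above the limit only in replicate 1, by 1.11 times. Its bounds were 2.20-fold and 1.66-fold.

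The filament genes of glia and progenitors did not share that order. Vim, vimentin of Müller glia, gave 475, 91.1 and 174, and was lowest in replicate 2. Gfap, named after its values were seen, was highest in replicate 1 and lowest in replicate 2 at both probe sets, with 344, 182 and 216 at one and 777, 555 and 663 at the other, although with equal medians the second was highest in replicate 3. Nes, nestin of progenitors, gave 49.7, 284 and 239.95 and did not pass the limit in replicate 1, while its other probe set was below the limit on every array.

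**Figure D2:**
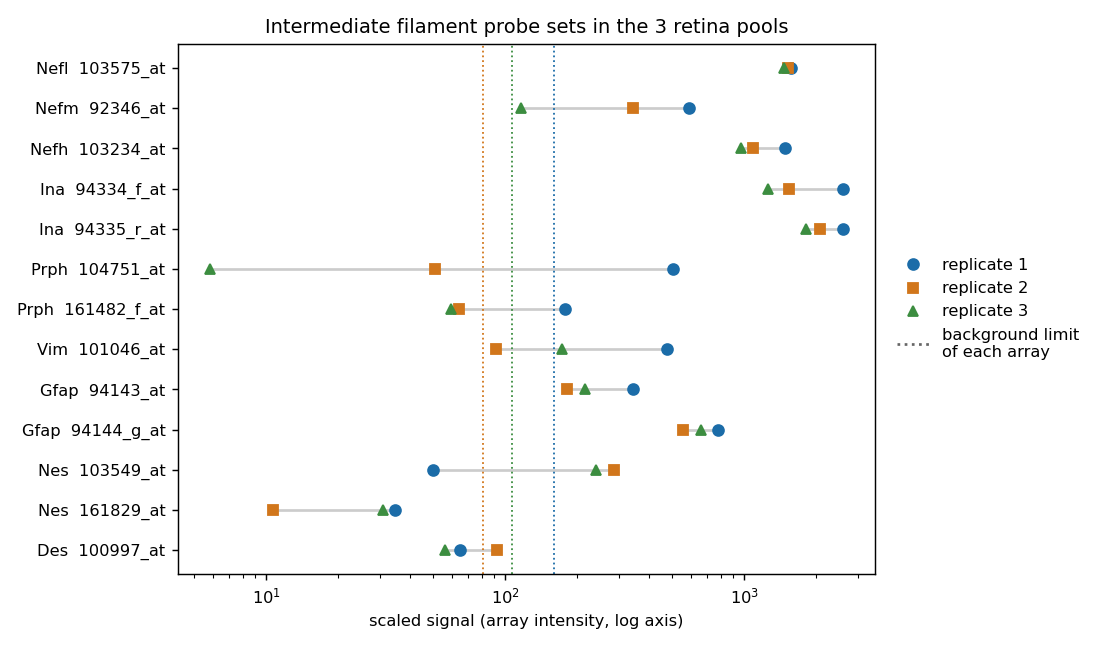
Scaled signal (array intensity, log axis) of all probe sets of 9 intermediate filament genes in the 3 pools, with the background limit of each array as a dotted line. Nefm, Nefh, Ina and Prph have their circles (replicate 1) at the right and triangles (replicate 3) at the left, while Vim and Gfap are lowest in replicate 2 and Nes 103549_at is lowest in replicate 1; with equal array medians Nefh and Ina 94335_r_at were highest in replicate 2 and Gfap 94144_g_at in replicate 3.

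Genes that modify or carry neurofilaments showed no single pattern. All 4 on the array, of 8 listed, were above background, and 2 of their 4 probe sets above the limit had a log2 range of 1 or more, a difference of 2-fold or more between pools that 30.6% of all probe sets above background reached. Cdk5, a kinase of the neurofilament tails, gave 989, 1413 and 1084, and its activator subunit Cdk5r1 gave 429, 201 and 178. Kif5a, a kinesin motor of axonal transport, gave 312, 298 and 455 at its probe set above the limit, and a second one was below the limit on all arrays. Dynll1, a light chain of dynein, gave 3269, 7687 and 5692. Cdk5r1 was thus highest in replicate 1, like Nefm, under all 4 scalings run, while Cdk5 and Dynll1 were lowest there.

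Axonal microtubule genes were above background for 9 of 9 genes on the array. Of 12 probe sets above the limit, 7 were highest in replicate 2 and 3 in replicate 1, where 31.5% and 43.1% of all probe sets above background were. With equal medians the counts were 9 and 1, where the shares were 52.5% and 25.0%, and after quantile normalization 4 and 4, where they were 33.0% and 39.3%. Tubb3, a tubulin of neurons including ganglion cells, gave 3232, 5131 and 3863 at one probe set and 635, 696 and 727 at another. Mapt, the axonal protein tau, had its lowest signal in replicate 1 at 2 of its 3 probe sets, with 1047, 2922 and 2416 at the one that ranged most. Map2, its counterpart in dendrites, gave 566, 1265 and 1060.7, Map1b gave 333, 212 and 322, and Dpysl2, a regulator of axonal microtubules, gave 193, 374 and 565.

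Thy1 was highest in replicate 1. It gave 2399, 1663 and 1515 in replicates 1, 2 and 3, a mean of 1859 ± 473 (SD, n = 3). The other two pools were close, and replicate 1 stood 1.44-fold above replicate 2. Without replicate 1 the log2 range was 0.13 instead of 0.66, and with equal array medians replicate 1 was 2043 against 1936 and 1528. The log2 SD of 0.35 was slightly above the median of 0.32 over 830 probe sets of similar level.

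T cells and some fibroblasts also express Thy1, and their markers were read beside it. Of 5 T cell genes on the array only Cd4 was above background on all arrays, with 769, 360 and 268, highest in replicate 1 like Thy1. Of the T cell receptor complex, Cd3d was below the limit on every array, Cd3e was above it only in replicate 3, at 111, and Cd3g only in replicate 1, at 454. The summed signal of the T cell list, over all its probe sets including those below the limit, ran from 428 to 1432. It was highest in replicate 1. Of the fibroblast list 4 of 5 genes were above background. Its summed signal, also over all probe sets, ran from 2580 to 4202 and was highest in replicate 3. The probe sets did not go the same way. Col1a1 gave 556, 409 and 769 at one and 37.9, 150 and 158 at another. Col1a2 gave 1424, 945 and 1959 at one and 38.8, 219 and 269 at another. Col3a1 gave 189, 82.9 and 145 at its probe set above the limit. Dcn gave 23.1, 602 and 648, below the limit in replicate 1. No listed probe set was at 0, but some were far below the limit, such as Col3a1 102990_at at 31.3, 2.00 and 2.40. A value above 0 is therefore not read as expression. The part of either cell type in the Thy1 signal was not tested.

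Sncg gave opposite pictures at its 2 probe sets. Probe set 104280_at, taken from the sequence record AF017255, gave 1892, 1409.7 and 799 in replicates 1, 2 and 3, a mean of 1367 ± 548 (SD, n = 3). Probe set 161859_f_at, taken from AV062363, gave 800.4, 1149 and 1719.7, a mean of 1223 ± 464 (SD, n = 3). At the first, replicate 1 was 2.37-fold above replicate 3. At the second, replicate 3 was 2.15-fold above replicate 1. The log2 ranges of 1.24 and 1.10 dropped to 0.42 and 0.52 without replicate 3, and to 0.82 and 0.58 without replicate 1. Both probe sets were above background on every array, by at least 4.99 times the limit. In Affymetrix names the suffix _f_at marks a probe set whose probes can match several similar sequences, and the suffix _at one without such a mark.

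The disagreement was set beside that of other genes. Over the whole array 1041 pairs of probe sets of the same gene were above background, and in 14.8% of them the highest and lowest pools were exchanged, as in the Sncg pair. Of the 305 pairs with an _f_at probe set this was 16.4%, and of the 736 others 14.1%. Of the 96 pairs in which both probe sets ranged by 2-fold or more, 10 were exchanged, and Sncg was among those 10. The distance between the profiles of the Sncg pair, each centred on its mean, was 1.67 on the log2 scale, above that of 92.4% of pairs, whose median was 0.73. With the 2 probe sets opposed, no direction between pools can be given for Sncg as a gene. With equal array medians 104280_at was highest in replicate 2, at 1641 against 1612 in replicate 1, and it was lowest in replicate 3 under each of the 4 scalings run. In that replicate 161859_f_at was highest under each of them.

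**Figure D3:**
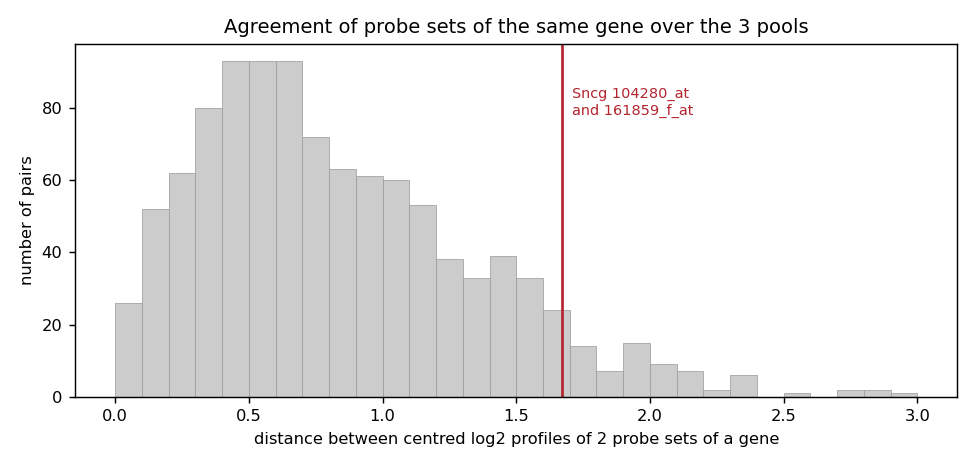
Histogram of the distance between the centred log2 profiles of 2 probe sets of the same gene over the 3 pools, for 1041 pairs above background on all arrays, with the Sncg pair as a vertical line. The Sncg pair lies at 1.67, in the right tail of a distribution with a median of 0.73.

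Of the other synuclein genes only Sncb, beta-synuclein, had a probe set of its own. It gave 3649, 2049 and 2227 and was highest in replicate 1 under each of the 4 scalings run, as 104280_at of Sncg was in 3 of them. Its log2 range was 0.83, which became 0.47 with equal medians and 1.25 after quantile normalization.

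Gap43, a growth-cone protein of developing and regenerating axons, was highest in replicate 2, alone among the members under the trimmed mean and quantile normalization and together with Nefl, Nefh and Sncg 104280_at with equal array medians. It gave 367, 448 and 313 in replicates 1, 2 and 3, a mean of 376 ± 68.1 (SD, n = 3). Replicate 2 was 1.43-fold above replicate 3 and 1.22-fold above replicate 1. The log2 range of 0.52 was 0.23 without replicate 2 and 0.29 without replicate 3. The log2 SD of 0.26 was below the median of 0.43 over 2088 probe sets of similar level. Replicate 2 was highest under all 4 scalings run. The lowest pool was replicate 3, or replicate 1 with equal medians or quantile normalization.

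Genes that share the growth cone with Gap43 were above background for 8 of 9 genes on the array. Basp1 and Marcks, which like Gap43 are membrane-bound protein kinase C substrates, were also lower in replicate 1 than in replicate 2, with 6860.03, 10283 and 8256 for Basp1 at one probe set, 5937, 7588 and 8023 at its other, and 1233, 2095 and 1488 for Marcks. After quantile normalization the first Basp1 probe set ranged by only 0.03 on the log2 scale and the other was lowest in replicate 2. Marcksl1 gave 1706, 1129 and 1267 and was highest in replicate 1. The adhesion molecule Ncam1 was split between probe sets, with 4399.95, 6107 and 5536 at 100153_at and 4293, 458 and 734 at 161750_f_at, while another was below the limit on all arrays. L1cam, an adhesion molecule of ganglion cell axons, gave 352, 207 and 146, in the order of Nefm. Of the 13 probe sets of the list above background, 4 ranged by 2-fold or more, close to the 30.6% of all probe sets above background. With equal medians it was 7, for which the share of all probe sets was not computed.

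Further ganglion cell markers were only partly covered. Of 22 listed genes 11 had a probe set of their own, and the transcription factor genes Pou4f1, Pou4f2 and Pou4f3, the transporter gene Slc17a6 and the melanopsin gene Opn4 were among the 11 not analysed here. Above background on all arrays were 7 of the 11, namely Isl1, Rbpms, Stmn2, Ebf3, Chrna6, Elavl2 and Elavl3. Isl1, a transcription factor of ganglion, bipolar and amacrine cells, gave 661, 759 and 517. Stmn2, a regulator of axonal microtubules, gave 1566, 1205 and 1359 at one probe set and 1036, 787 and 719 at another, while another was above the limit in replicate 1 alone. Ebf1, a transcription factor, was below the limit in replicate 1, at 90.7, and gave 211 and 175 in replicates 2 and 3.

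Rbpms, an RNA-binding protein of ganglion cells, ran against Nefm and Thy1. Its 2 probe sets gave 222, 735 and 542, and 206, 690.5 and 783, so that both were lowest in replicate 1, by 3.31-fold and 3.80-fold from the highest pool, and remained so under each of the 4 scalings run. Elavl3, an RNA-binding protein of neurons, gave 651, 257 and 375 and was highest in replicate 1. Of the 10 probe sets of this list above background, 6 were highest in replicate 1, where 43.1% of all probe sets above background were. With equal medians it was 3, where the share was 25.0%, and after quantile normalization 5, where it was 39.3%. Of the 10, 3 ranged by 2-fold or more, close to the 30.6% of all probe sets above background. The ganglion cell markers on the array thus had no common direction between the pools.

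Over the 7 member probe sets the median log2 SD was 0.35, against 0.38 over all probe sets above background. With equal array medians these were 0.42 and 0.43, and after quantile normalization 0.51 and 0.36. A log2 range of 1 or more was reached by 3 of 7, which are Nefm and both Sncg probe sets, against the 30.6% of all probe sets given above. Without replicate 1 the count was 1, and without replicate 3 it was 0, while without replicate 2 it stayed at 3. The share of all probe sets was computed with all 3 arrays only, so these last counts have no share beside them. By rank, Nefl was among the least and Nefm among the most variable probe sets above background, and the other 5 lay between them.

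**Figure D4:**
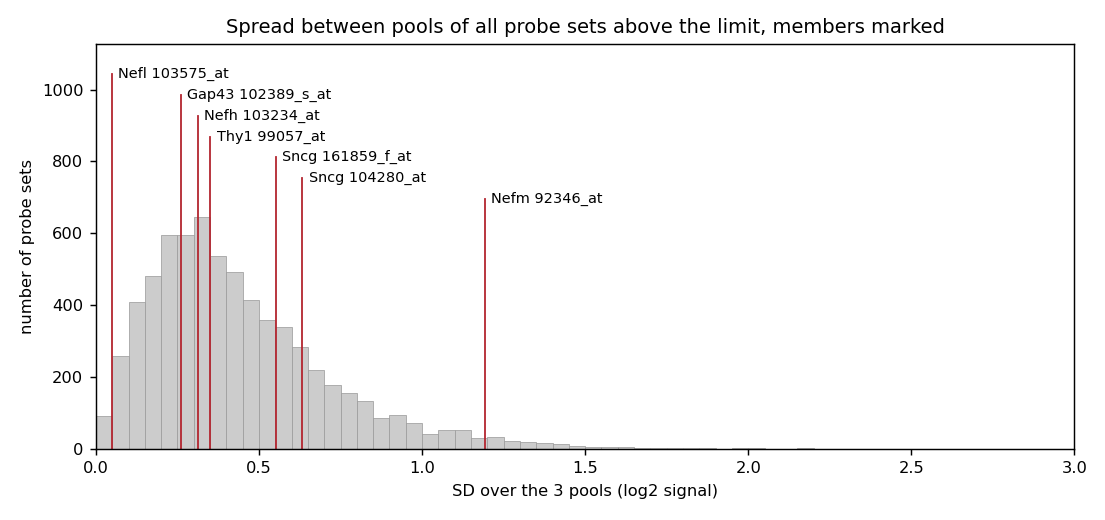
Histogram of the SD over the 3 pools (log2 signal) of all 6752 probe sets above background, with a red line for each member probe set. Nefl lies at 0.05 and Nefm at 1.19, and the other 5 lines lie between 0.26 and 0.63, around the median of 0.38.

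The pool with the highest signal was replicate 1 for 5 of the 7 probe sets, namely Nefl, Nefm, Nefh, Thy1 and Sncg 104280_at, against 43.1% of all probe sets above background. The same 5 were lowest in replicate 3, a combination found in 19.6% of all probe sets. Both counts follow the scaling, since the second was 2 of 7 with equal array medians and 4 of 7 after quantile normalization. The share of all probe sets with this combination was computed for the trimmed mean only, so these 2 counts have no share beside them. With those medians 2 of 7 were highest in replicate 1, namely Nefm and Thy1, against 25.0% of all, and 4 in replicate 2, against 52.5%. After quantile normalization 5 were highest in replicate 1, against 39.3%.

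**Figure D5:**
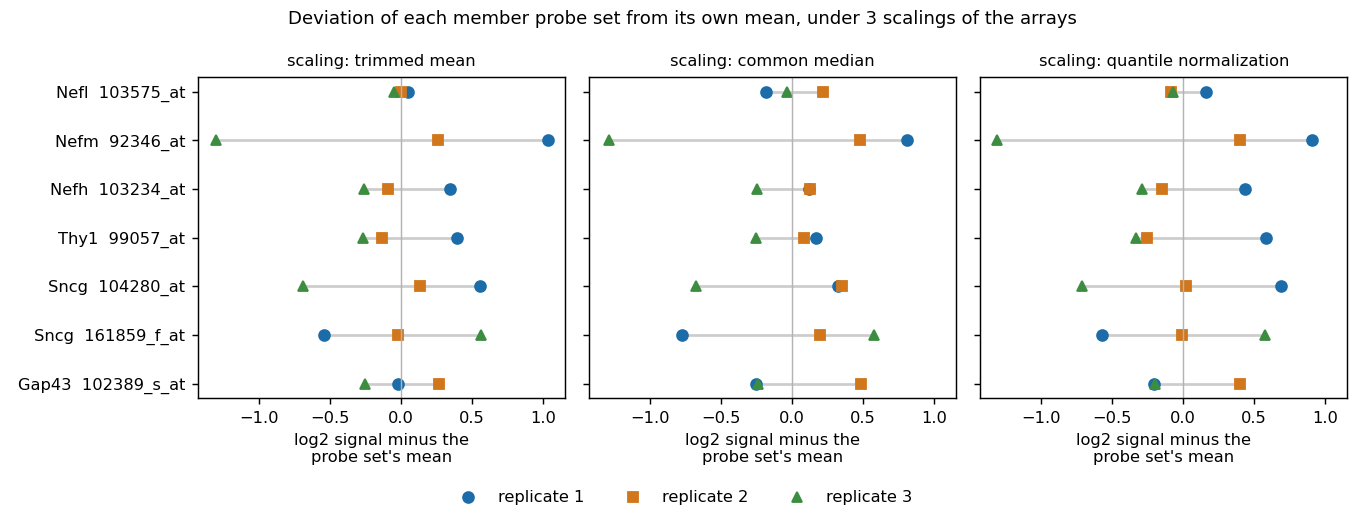
Log2 signal of each member probe set minus its own mean over the 3 pools, in one panel for each of 3 scalings of the arrays (trimmed mean, common median, quantile normalization), with one symbol per pool. Nefm keeps replicate 1 at the right and replicate 3 at the left in every panel, and Sncg 161859_f_at keeps the reverse, while the order of Nefl and the highest pool of Nefh differ between panels.

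Markers of other cell types were read in the same pools. Their summed signals cover every probe set of the listed genes on the array, also those below the limit. The summed signal of the amacrine and horizontal cell list (9 of 10 genes above background, among them Gad1, Slc6a9 and Slc32a1 but not Gad2) lay between 18289.9 and 21042. Its member Th was highest in replicate 1, with 825, 193 and 205, and Prox1, of horizontal and amacrine cells, was highest in replicate 3, with 215, 379 and 554. The rod list (9 of 9, among them Gnat1, Pde6b, Pde6a and Pde6g) ran from 109324 to 155989. Of its 10 probe sets 6 were highest in replicate 2 and 3 in replicate 1 (Prph2, Nrl and 1 of Pde6b). Over all probe sets above background these shares were 31.5% and 43.1%. With equal medians the rod counts were 7 and 2, where the shares were 52.5% and 25.0%. After quantile normalization they were 1 and 8, where the shares were 33.0% and 39.3%. The list of Müller glia and astrocytes (6 of 7, among them Glul, Rlbp1, Aqp4, Clu and S100b) ran from 15930 to 23107. It was lowest in replicate 1, as both Clu probe sets were, with 3682, 9331 and 8369 at one and 1473, 3621 and 3642 at the other. The order of this sum rested on Clu and did not hold for the list without it. Of the 10 probe sets of the list above background 4, among them S100b, were highest in replicate 1, where 43.1% of all were. The myelin and Schwann cell list (4 of 7) ran from 1954 to 3269, highest in replicate 1. That place of replicate 1 rested on Mbp 96311_at, which gave 989.6, 107 and 141, while another Mbp probe set gave 322, 343 and 557. Mobp and Mog were above the limit on at most 1 array each at every probe set, and Mag was above it on all arrays at 1 of its 2. The pigmented cell list (2 of 5 genes above background, Dct and Pmel) was summed at 1575 in replicate 1 and 12754 and 8582 in the others. Tyrp1 97954_at gave 63.2, 1434 and 997, and Tyr gave 84.1, 177 and 170, each below the limit in replicate 1 only. The red blood cell list (2 of 4, Hba-a1 and Hbb-b2) was summed at 5490.3, 31716 and 8254. Alas2, at 82.8, 505 and 145, and Slc4a1, at 113, 109 and 240, were also below the limit in replicate 1 only. Replicate 1, which held the highest Nefm and Thy1, also held the lowest signal of Dct and Pmel. Hba-a1 was lowest there too, with 4077, 25566 and 6661, while Hbb-b2 gave 1218, 5536 and 1207. The part of such differences in the member values was not tested.

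The genes with the most similar profiles were named by the distance between log2 profiles centred on their means, over the 3 pools and 6087 other probe sets with 1 symbol above background. With so few pools many genes match by that measure. Within a distance of 0.25 there were 917 probe sets for Nefl, led by Zfp148 and Kdm3a, 645 for Nefh, led by Agrn and Rnaseh2a, 627 for Gap43, led by Caprin1 and H2az2, and 566 for Thy1, led by Mettl26 and Ggps1. Sncg 104280_at had 120, led by Ccdc115 and Cerk, and Sncg 161859_f_at had 144, led by Ctdsp2 and Fgfr2. Nefm had 1, Zfp787, with 450.3, 274 and 112, and the next was Ndufa6 at a distance of 0.29, with 1399, 622 and 263. Fewer probe sets thus lay within that distance of Nefm than of the other members. A fixed distance leaves few neighbours for a profile that ranges widely. The count for Nefm therefore follows its log2 SD of 1.19 and is no separate result.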

How the data were processed

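Total RNA of 3 pools of mouse neural retina was measured on 1 Affymetrix array each, whose type the sample titles name as U74Av2. The deposited table gives a linear intensity for each of 12488 probe sets and each array. The authors' software and scaling are not given in the sources used here. Each array was multiplied by a factor (0.998, 1.00 and 1.00) that brought its 2% trimmed mean, taken without controls over 12422 probe sets, to the average of the arrays. For log2 values, signals under the 5th percentile of their array were raised to it. Gene symbols came from the platform annotation, and a probe set with several symbols named no gene. All 6 member symbols, and all 118 genes of the 14 lists, were found in the gene table of GRCm38.p6. A gene counted as above background where any of its probe sets was so on all 3 arrays. Replicate numbers follow the order of the records. The labels list the pools as separate samples.

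With 1 group no test was run, and values are described by mean, SD and range. Named were all member probe sets, the first 4 genes on the array from each list, list genes whose probe sets were all above background with log2 ranges of 1 or more, and for each member probe set the 2 genes nearest in profile. The members and lists were chosen with earlier results of these data known. Alternatives concerned the limit, the scaling, the floor, the range threshold, the probe sets counted and the samples. Precision is limited by the number of arrays. The computation was tested on simulated data with less spread between arrays than found here, and on brighter probe sets only. That checks the code and not the precision of these values. Python 3.11.15, numpy 2.4.6, pandas 2.3.3 and matplotlib 3.10.9 were used.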

Additional observations from a re-analysis of the deposited data

How the results depend on the processing

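Of 103 values recomputed under the alternatives 14 moved, where a count or median SD had to differ by more than 1.5 times and a range by more than the SD between pools. A range over 3 pools is large beside their SD, so this rule is a coarse one: the range of Nefh, which went from 0.61 to 0.37 with equal medians, did not count as moved. The median SD of the members lay between 0.31 and 0.51 over all alternatives. The number of member probe sets highest in replicate 1 went from 5 to 2 with equal array medians, and lay between 5 and 6 when replicate 2 or 3 was left out. The number with a log2 range of 1 or more went from 3 to 5 at a threshold of 0.58 and to 1 at a 3-fold threshold, and lay between 0 and 3 with 1 replicate left out. Shares of all probe sets were not computed at other thresholds or with a replicate left out, so counts under those settings describe the members only. The log2 range of Nefl went from 0.10 to 0.41 with equal medians and to 0.24 after quantile normalization. With 1 replicate left out in turn, it lay between 0.045 and 0.098 for Nefl, 0.78 and 2.34 for Nefm, 0.17 and 0.61 for Nefh, 0.13 and 0.66 for Thy1, 0.42 and 1.24 for Sncg 104280_at, 0.52 and 1.10 for Sncg 161859_f_at, and 0.23 and 0.52 for Gap43. Fewer samples cannot widen a range, and the cause of the moves with scaling was not tested. Under a limit at the 40th percentile of the signals, 160.9 in replicate 3, Nefm at 116 there was no longer above it, and 6 of 7 member probe sets remained. The share of all probe sets above that limit was not computed. Only 3 arrays and a limit set by few controls bound how low a signal could be read.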
